A study of Mus musculus with 4 samples.

Results

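A set of 291 array probes gave signal in 1 mouse cell line and not in the other, out of 60902 probes in the deposited value table and 59051 whose names were admitted. Each was well above background, by the scanner software's flag, on both arrays of its line and on neither array of the other line. Members were chosen by these flags and by the authors' log2 values, which had to be higher by at least 3 in the line with signal at day 0 and at day 4. Of the 291, 160 were found in 3T3-L1 only (0.271% of the admitted probes) and 131 in C3H10T1/2 only (0.222%). Counted without control probes, these numbers were nearly unchanged under other scalings of the same signals. They were 158 and 130 with each array scaled to its 75th percentile, and 158 and 131 after quantile normalization. This was largely set in advance. The authors' values had a median of 5.93 on each of the 4 arrays and an r of at least 0.99938 with the log2 scanner signals. They also gave nearly the same changes with day as quantile normalization. Other choices moved the numbers of members strongly. Without the control probes, 158 and 131 became 21 and 31 when the rule was applied to normexp-corrected median signals (offset 50) after quantile normalization. The offset is added to every corrected signal, which by itself shrinks log2 differences from dim signals. The numbers became 78 and 59 when even weak significant signal in the other line was barred. Since the contrast between the lines chose the members, it is described here and not tested. Among the 160, 2 were array control probes, and the 158 and 131 others, each printed in 1 spot, are described below.

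The samples were C3H10T1/2 and 3T3-L1 cells, labelled as day 0 and day 4 of induction, with 1 array for each of the 4 groups. The inducing agents are not given in the sources used here. Total RNA, freed of ribosomal RNA, was amplified along whole transcripts and hybridized in 1 colour to the Arraystar mouse array for long noncoding RNAs and mRNAs. With 1 array per group there is no spread between cultures and no p-value is given. The 75th percentile of intensity lay between 321 and 388 fluorescence units on the 4 arrays, and 58.9% to 63.9% of probes were above background, the most in 3T3-L1 at day 0. No spot was saturated, and 3 to 6 of 300 negative control spots per array were called above background. Precision is limited throughout by there being so few arrays.

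Both lines are fibroblast-like and are standard models of fat cell formation. C3H10T1/2 came from embryos of the C3H strain and is multipotent, able to give fat, muscle, bone and cartilage cells, whereas 3T3-L1 is a clone of Swiss mouse embryo cells already committed to the fat lineage. In both, induction starts a cascade through C/EBP factors and PPAR-gamma, in which genes of the progenitor state are silenced while genes of lipid storage come on. Long noncoding RNAs are, as a class, more restricted to particular cell types than mRNAs. The files pair none of the members with a gene: 0 of 289 names matched a RefSeq symbol, synonym or transcript, so members are named by probe, and adipocyte or other cell type markers could not be read. Most came from the ASMM10P series of names, with 156 and 129 of its 58045 probes, and 2 and 2 of 923 came from the ASMM10UP series.

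The 3T3-L1-only probes covered a wide range of brightness. In 3T3-L1 their intensities ran from 56.0 to 5956 at day 0, with a median of 317, and from 43.0 to 5643 at day 4, with a median of 197. On the C3H10T1/2 arrays the same probes gave 4.88 to 29.9 at day 0 (median 6.14) and 5.0 to 31.1 at day 4 (median 6.56). The lowest signal above background on those arrays was 24.5 and 25.1, so a few of the dim values overlapped the bottom of the detected range. Levels, as log2 of the intensity over the 75th percentile of the same array, had medians of -0.29 at day 0 and -0.85 at day 4, against -0.75 and -0.59 for all probes above background in 3T3-L1. The demand for a difference of 3 removes dim probes (the lowest member level at day 0 was -2.79, against -3.96 for all detected probes), so a comparison of levels with other probes is partly set by the values that chose the members. It is given as a description. Of the 158, 69 (43.7%) lay above the array's 75th percentile at day 0 and 44 (27.8%) at day 4, while among all detected probes these shares were 39.4% and 41.6%.

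The C3H10T1/2-only probes had a similar middle and a longer bright tail. Their intensities in C3H10T1/2 ran from 46.9 to 55459 at day 0 (median 282) and from 47.0 to 21956 at day 4 (median 195). On the 3T3-L1 arrays they gave 4.95 to 28.7 at day 0 (median 5.73) and 4.89 to 26.4 at day 4 (median 6.02). Median levels were -0.18 and -0.90, against -0.50 and -0.58 for all probes above background in C3H10T1/2. Here too the rule removed the dim end, with a lowest level at day 0 of -2.77 among members and -3.71 among all detected probes, and nothing is read from the comparison. Shares above the 75th percentile were 61 of 131 (46.6%) at day 0 and 49 (37.4%) at day 4, against 42.7% and 41.9% of all detected probes. The mean level of 6 of them exceeded that of the brightest 3T3-L1-only probe.

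A probe that is not above background gives only a lower limit of the difference between the lines. It was taken against either the dim probe's signal or the faintest detected signal of the same array, whichever was higher, after scaling. By this limit, the excess of 3T3-L1-only probes in their own line was at least 1.89-fold to at least 201-fold at day 0 (median 10.7) and at least 1.76-fold to 230.4-fold at day 4 (median 8.04). For C3H10T1/2-only probes the limits ran from 2.28 to 2697 at day 0 (median 13.7) and from 1.97 to 919.9 at day 4 (median 8.17). Limits of 10-fold or more on both days were reached by 55 of 158 probes (34.8%) and 48 of 131 (36.6%). Limits of 50-fold or more on both days were reached by 10 and 11. At the other end, 6 and 2 probes had a limit under 2-fold on at least 1 day.

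Members differed in how much signal they had in the other line. A second flag of the scanner software marks spots whose signal is positive and significant against the background, a weaker demand. It was unset on both C3H10T1/2 arrays for 78 of the 158 3T3-L1-only probes (49.4%), set on both for 45, at day 4 only for 29 and at day 0 only for 6. Weak signal on the C3H10T1/2 arrays was therefore more frequent among members at day 4 (74 probes, 46.8%) than at day 0 (51, 32.3%), while among all 21243 probes not above background there the shares were 43.3% and 40.8%. For the C3H10T1/2-only probes, the flag was unset on both 3T3-L1 arrays for 59 of 131 (45.0%), set on both for 29, at day 0 only for 28 and at day 4 only for 15. On those arrays weak signal was the more frequent at day 0 (57 probes, 43.5%, against 44, 33.6%), as it was among all 19374 probes not above background there (45.1% against 39.2%).

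At the threshold itself, the members just inside were ASMM10P007577, ASMM10P056609 and ASMM10P003507 in 3T3-L1, whose smaller difference over the days was 3.005, 3.014 and 3.024. Just outside lay ASMM10P053731, ASMM10P003496 and ASMM10P036568, with 2.965, 2.955 and 2.953. In C3H10T1/2 the values inside were 3.019 for ASMM10P025884, 3.029 for ASMM10P032222 and 3.055 for ASMM10P005087. Those outside were 2.992 for ASMM10P004133, 2.989 for ASMM10P052494 and 2.977 for ASMM10P017034. The cut thus falls inside a continuous series of values. Counted by the flags alone, with no demand on the difference, 990 probes were above background in 3T3-L1 only and 363 in C3H10T1/2 only, so members made up 16.0% and 36.1% of them.

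The change with day was then read in the line that has each probe. In 3T3-L1, 49 of the 158 3T3-L1-only probes (31.0%) were at least 2-fold lower at day 4 and 11 (6.96%) at least 2-fold higher. Among all 35066 probes above background on both 3T3-L1 arrays, 9.15% were lower and 8.36% higher by this measure. The share with a higher signal was close to the background, and the share with a lower signal was above it. The members' log2 change had a median of -0.44, quartiles of -1.18 and 0.21, and a range of -4.07 to 3.54, against a median of 0.07 for all probes. The direction of this median also held with a difference of at least 2 (-0.5) or at least 4 (-0.43). It did not hold for the flags alone: over all 990 probes above background in 3T3-L1 only the median was 0.02. In all, 107 of 158 values (67.7%) lay below 0, against 45.1% of all probes in 3T3-L1. Between 2-fold lower and 2-fold higher lay 98 (62.0%), against 82.5% of all probes.

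The C3H10T1/2-only probes leaned the same way in their own line. Of 131, 50 (38.2%) were at least 2-fold lower at day 4 and 12 (9.16%) at least 2-fold higher. Of all 33707 probes above background on both C3H10T1/2 arrays, 6.70% were lower and 7.67% higher. Their median log2 change was -0.52, with quartiles of -1.59 and 0.23 and a range of -4.29 to 4.77, against a median of -0.05 for all probes. Values below 0 were found for 88 of the 131 (67.2%), against 54.4% of all probes. Differences of at least 8-fold downward were seen for 9 C3H10T1/2-only probes (6.87%, against 0.264% of all probes) and 7 3T3-L1-only probes (4.43%, against 0.636%). Upward they were seen for 4 (3.05%, against 0.724%) and 3 (1.90%, against 0.607%).

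These shares rest on 1 array per day, and all members of a line share the same pair of arrays, so they are not replicates of the induction. For a single probe the only error at hand is the scanner software's own, which for the log2 change had a median of 0.21 on both sides and a maximum of 0.30. It is technical and covers no difference between cultures. The arrays that give the change are also those that chose the members. With 1 array per group, a difference between arrays cannot be told apart from one between lines or days. In such bulk RNA, fewer cells with a transcript and less of it per cell cannot be told apart.

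The higher share of lower signals was seen in dim and bright members. At a mean level under -1, 13 of 60 3T3-L1-only probes (21.7%) were at least 2-fold lower, against 8.63% of all probes of that level. From -1 to 0 the shares were 40.9% (18 of 44) against 11.4%, from 0 to 2 they were 38.5% (15 of 39) against 10.3%, and at 2 or more 3 of 15 were lower, against 7.24%. In C3H10T1/2 the shares from the dimmest to the brightest class were 35.3% (18 of 51), 34.6% (9 of 26), 33.3% (13 of 39) and 66.7% (10 of 15). Those of all probes in the same classes were 6.64%, 7.85%, 6.93% and 5.73%. The members' share exceeded that of all probes in each of the 4 classes and in both lines.

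It was also seen with and without weak signal in the other line. Among members with no weak signal in the other line, 23 of 78 (29.5%) were lower in 3T3-L1 and 23 of 59 (39.0%) in C3H10T1/2. Among those with weak signal on at least 1 array of the other line, the figures were 26 of 80 (32.5%) and 27 of 72 (37.5%).

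The share of 1-line-only probes at least 2-fold lower at day 4 did not rise steadily with the difference demanded. At differences of at least 2, 3 and 4 it was 36.4%, 31.0% and 29.1% in 3T3-L1, and 32.8%, 38.2% and 31.6% in C3H10T1/2. Probes of the same kind outside the set were counted as well. Those above background in 3T3-L1 only but with a difference under 3 on some day numbered 832, of which 12.7% were at least 2-fold lower and 8.29% higher at day 4. Their median log2 change was 0.09, and 45.1% of them lay below 0, the same share as among all probes in 3T3-L1. In C3H10T1/2 the corresponding 232 probes had 14.7% lower and 9.05% higher, a median of -0.23 and 65.9% below 0. The share below 0 was 67.2% among members and 54.4% among all probes in C3H10T1/2. Probes above background on all 4 arrays, yet at least 3 higher in 1 line on both days, were also examined. There were 74 such probes for 3T3-L1, with 9 (12.2%) lower and 12 (16.2%) higher, and 48 for C3H10T1/2, with 15 (31.2%) lower and 2 (4.17%) higher. In C3H10T1/2 a high share of lower signals was thus also seen in probes present in both lines, while in 3T3-L1 the share in such probes was nearer to the background. The differences between these sets were not tested.

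Individual probes show both the stable and the changing members. Brightness is ranked here by the mean level over both days, which favours probes that stay bright. Among the 6 brightest 3T3-L1-only probes by that rank, ASMM10P038900 gave 4901 ± 490.2 at day 0 and 5029 ± 503 at day 4 (± is the scanner software's error), against 18.9 and 9.36 in C3H10T1/2. ASMM10P053144 gave 3591 ± 359 and 5643 ± 564, against 6.21 and 6.56. ASMM10P009875 gave 5538 ± 554 and 3533 ± 353, against 5.61 and 5.71. All of these 6 were within 2-fold of their day 0 level, which does not hold for the brightest at day 0 alone: ASMM10P017847, ASMM10P028486 (4566 and 527) and ASMM10P044700 (4325 and 339) were among the 6 brightest then and had log2 changes of -3.67, -2.99 and -3.55. ASMM10P020779 gave 4991 and 3314, ASMM10P044032 gave 3456 and 3777, and ASMM10P045252 gave 2177 and 2726. Their log2 changes ran from -0.52 (ASMM10P009875) to 0.78 (ASMM10P053144), and the lower limit of their excess over C3H10T1/2 was 73.5-fold or more at each day.

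The 4 largest decreases among 3T3-L1-only probes were of 12.8-fold to 16.8-fold. ASMM10P024743 gave 1534 ± 154 at day 0 and 83.9 ± 10.4 at day 4 (log2 change -4.07 ± 0.23). ASMM10P017848 went from 851 to 52.8 (-3.89 ± 0.26), ASMM10P018487 from 1916 to 133 (-3.72 ± 0.21) and ASMM10P017847 from 5956 to 428 (-3.67 ± 0.20). ASMM10P017847 was the brightest of all 3T3-L1-only probes at day 0. In C3H10T1/2 none of these 4 exceeded 17.8 on either day. In the other direction, ASMM10P043930 went from 153 ± 16.3 to 1639 ± 164 (log2 change 3.54 ± 0.21), and ASMM10P052948 from 192 to 1447 (3.04 ± 0.21). ASMM10P049661 went from 56.0 to 419 (3.03 ± 0.24) and ASMM10P016278 from 140.4 to 890.1 (2.79 ± 0.21). With 29.7 at day 4, ASMM10P043930 also had one of the highest signals of a member on a C3H10T1/2 array, against 5.91 there at day 0.

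Among C3H10T1/2-only probes, ASMM10P051221 was the brightest, by mean level and on each day. It gave 55459 ± 5546 at day 0 and 21956 ± 2196 at day 4 in C3H10T1/2, against 14.3 and 23.0 in 3T3-L1, and was at least 2697-fold and at least 919.9-fold brighter in C3H10T1/2. At day 4 it was brighter than 96.2% of all probes above background on that array. ASMM10P033625 (12913 ± 1291 and 11518 ± 1152), ASMM10P002955 (8692 ± 869 and 11269 ± 1127) and ASMM10P044290 (5528 ± 553 and 6201 ± 620.2) were bright on both days and within 1.27-fold of their day 0 level. Against these, 3T3-L1 had at most 16.6. The other 2 of the 6 brightest by mean level were much lower at day 4: ASMM10P012552 went from 36234 ± 3623 to 2834 ± 283 (log2 change -3.86 ± 0.20) and ASMM10P017888 from 18213 ± 1821 to 2733 ± 273 (-2.92 ± 0.20).

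The largest decrease on this side was 19.5-fold, in ASMM10P007561, from 1729 ± 173 to 100.4 ± 12.0 (log2 change -4.29 ± 0.23). ASMM10P011827 went from 2591 to 195 (-3.91 ± 0.21) and ASMM10P028527 from 12599 to 1062 (-3.75 ± 0.20), which with ASMM10P012552 completes the 4 largest. The largest increase of any member was in ASMM10P053155, from 57.1 ± 8.43 to 1766 ± 177, or 27.2-fold (4.77 ± 0.26), with 5.51 and 5.88 in 3T3-L1. Its day 0 signal was near the bottom of the detected range, where the size of a ratio is least certain. ASMM10P017243 went from 206 to 2418 (3.37 ± 0.21), ASMM10P017242 from 195 to 2213 (3.32 ± 0.21) and ASMM10P021164 from 50.4 to 572 (3.32 ± 0.26). These 3 also had higher signals at day 4 than at day 0 in 3T3-L1, 9.84 against 5.56, 16.8 against 5.16 and 23.7 against 5.34, without being well above background there.

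Some members carry nearly adjacent probe numbers. Taking ASMM10P numbers up to 3 apart, 18 of 156 3T3-L1-only probes fell into 9 runs and 17 of 129 C3H10T1/2-only probes into 8. In 7 of the 9 and 6 of the 8 runs every member differed in the same direction between days. Of all pairs of probes above background on both days with numbers that close, 53.4% in 3T3-L1 and 52.8% in C3H10T1/2 had the same direction. Those pairs are not like the runs, since 107 of 158 and 88 of 131 members had a change below 0. The number of runs among as many other probes was not counted. The numbers' order is not explained in the files. Across the array it carried a weak relation to the line difference, with Pearson's r = 0.17 over 29829 detected pairs with consecutive numbers and 0.03 over 28751 pairs with numbers 10 apart, a description in which all pairs share the same 4 arrays.

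Some runs, picked out after their values were seen, show how alike or unlike their members were. ASMM10P017847 and ASMM10P017848 were 12.8-fold and 14.8-fold lower at day 4 in 3T3-L1, and ASMM10P029898 and ASMM10P029899 were 3.15-fold and 5.41-fold lower. ASMM10P020779 and ASMM10P020781 were 1.38-fold and 1.40-fold lower. In C3H10T1/2, ASMM10P028526 went from 1375 to 181 (8.64-fold lower) beside ASMM10P028527 (13.5-fold lower), and ASMM10P017242 and ASMM10P017243 were 9.98-fold and 10.3-fold higher. A counterexample was ASMM10P043932, which was 1.49-fold lower while ASMM10P043930 was 11.7-fold higher.

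With numbers up to 3 apart, ASMM10P051226, ASMM10P051228 and ASMM10P051229 formed 1 run of C3H10T1/2-only probes and ASMM10P051234 and ASMM10P051236 another. Allowing gaps of 5, a width chosen after the values were seen, these and ASMM10P051221 made a stretch of 16 consecutive numbers with 6 members. Besides ASMM10P051221, ASMM10P051228 went from 4775 at day 0 to 1817 at day 4, ASMM10P051229 from 2342 to 1077 and ASMM10P051226 from 609 to 169.7. ASMM10P051234 went from 3032 to 1157 and ASMM10P051236 from 3462 to 1272. All 6 were lower at day 4 in C3H10T1/2, with log2 changes between -2.03 and -1.30, and their signals in 3T3-L1 ran from 5.34 to 23.0. Their spots lay at least 17 rows or columns from one another on the array. Of the 10 probes numbered between them, 7 were above background on all 4 arrays. One of them, ASMM10P051222, gave 78112 and 41694 on the C3H10T1/2 arrays, with signals of 35.5 and 32.1 from 3T3-L1, where it was above background on both arrays and so was no member. ASMM10P051224, by contrast, was alike in the lines, at 765 and 742 for C3H10T1/2 against 779 and 858 for 3T3-L1. Both were picked out after their values were seen.

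Whether members gathered in a region of the array was not tested, and only touching spots were counted. A touching spot held another member of the same side for 4 of the 158 3T3-L1-only probes and 2 of the 131 C3H10T1/2-only probes. No member's spot was marked as non-uniform on any of the 4 arrays.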

How the data were processed

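Each sample was 1 array, and the 4 arrays were grouped by line and day from the sample labels. The deposited scanner files give spot intensity (the processed signal, already background-corrected by the scanner software per the file headers) with flags and errors. The authors' deposited value table gives log2 values, whose normalization is not stated in the files; only the membership rule and an alternative used them. Spots of a probe were averaged, and log2 intensity was taken relative to each array's 75th percentile over probes. A change is day 4 minus day 0 on that scale, and its error comes from the spot errors. With 1 array per group no test was run. The counting code was run on simulated probes planted far apart in level. That checks the code only, and not the flags or the dim signals of these arrays. Alternatives were other normalizations, thresholds and flags. The members and lists were chosen with earlier results of these data known. Probes named in the text were the 6 brightest by mean level over both days, the 4 largest increases, the 4 largest decreases and the 3 on each side of the threshold per line; others are said to have been picked later. Gene lists and cell type markers could not be scored, since no member has a gene name in the tables used here.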

Additional observations from a re-analysis of the deposited data

Results flagged for a closer look

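Signal was also found in 1 line only among probes outside the described members. The array control probes DCP_20_0 and DCP_20_3 met the membership rule in 3T3-L1. DCP_20_0 gave 139 and 58.2 in 3T3-L1 at day 0 and day 4, against 6.24 and 6.50 in C3H10T1/2, and was at least 4.69-fold brighter at day 0. DCP_20_3 gave 111 and 52.2, against 6.38 and 6.56, and was at least 3.74-fold brighter at day 0. Both were lower at day 4, with log2 changes of -1.13 and -0.96. These array controls thus differed by line and day as members did. Other controls of this series did not meet the rule. DCP_20_1 gave 127 and 69.1 in 3T3-L1, against 13.0 and 14.8 in C3H10T1/2. DCP_20_7 gave 21.9 and 13.1, against 6.21 and 6.61, and DCP_20_9 gave 32.0 and 27.7, against 6.18 and 6.57. Their log2 changes in 3T3-L1 were -0.75, -0.61 and -0.08. DCP_20_5 gave 5.69 and 6.09 in 3T3-L1, and 6.24 and 6.61 in C3H10T1/2. It was below the detected range on every array, so it could show no difference. With 1 array per group, a difference between arrays cannot be told apart from one between lines or days.

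Among the name series that the rule left out, MM9LINCRNAEXON11009-_P1 met its other conditions in C3H10T1/2, with 179 and 48.3 against 4.95 and 5.90 in 3T3-L1, at least 8.72-fold brighter at day 0. The probe mouselincRNA1559+_P1 met them in 3T3-L1, with 107 and 166 against 5.79 and 6.01 in C3H10T1/2, at least 3.62-fold brighter at day 0.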

How the results depend on the processing

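The number of members stayed at 158 in 3T3-L1 and at 130 or 131 in C3H10T1/2 under other scalings of the same signals. This was largely set in advance, since these scalings are close to the authors' values that chose the members. The number moved with other choices. For 3T3-L1 (158) it was 21 with normexp on median signals (offset 50) and quantile normalization, which changes the signal, the background correction and the scaling together, 283 and 86 with a difference of at least 2 or 4, 78 with the weaker flag unset in the other line, and 238 with the difference averaged over days. For C3H10T1/2 (131) it was 31, 201, 79, 59 and 170 under the same choices in the same order. The offset of 50 is added to every corrected signal, which by itself shrinks log2 differences from dim signals. How much of the drop to 21 and 31 came from the offset was not tested. The 3T3-L1 count at least 2-fold higher (11, 6.96%) was 6 at 4-fold (3.8%, against 2.06% of all probes). At 1.5-fold it was 22, with no share of all probes at hand. With a difference of at least 2, at least 4 or any, it was 28 of 283 (9.89%), 5 of 86 (5.81%) and 80 of 990 (8.08%). Of all probes, 8.36% were at least 2-fold higher. The count lower (49, 31.0%) was 17 at 4-fold (10.8%, against 2.24% of all probes), and with those members 103 of 283 (36.4%), 25 of 86 (29.1%) and 155 of 990 (15.7%), against 9.15% of all probes. With any difference the median change was 0.02 in place of -0.44. In C3H10T1/2 the count higher (12, 9.16%) was 6 at 4-fold (4.58%, against 2.08% of all probes). At 1.5-fold it was 20, with no share of all probes at hand. With a difference of at least 2 or any, it was 23 of 201 (11.4%) and 33 of 363 (9.09%), against 7.67% of all probes. The count lower (50, 38.2%) was 20 at 4-fold (15.3%, against 1.20% of all), 25 of 79 (31.6%) with a difference of at least 4 and 84 of 363 (23.1%) with any, against 6.70% of all. Under 4 other normalizations of the same members, 38 to 56 3T3-L1-only and 39 to 52 C3H10T1/2-only probes were lower, or 24.1% to 35.4% and 29.8% to 39.7%, against 6.12% to 10.3% and 4.18% to 7.72% of all probes. Among these, quantile normalization and the authors' values gave the same counts (50 in 3T3-L1, 49 in C3H10T1/2) and are not separate checks. Of 108 values for named probes, 107 kept their sign; ASMM10P002955 turned from 0.19 to -0.04 under normexp. The cause was not tested. No paired analysis was possible because each group has 1 array and the labels give no replicate numbers. Intensities near background limit the smallest levels and ratios.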

Other observations

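The control probe (+)E1A_r60_a20 missed the rule through 1 of its 35 spots, which was above background in C3H10T1/2 at day 4. Its signals were 122 and 58.3 in 3T3-L1 and 7.01 and 7.45 in C3H10T1/2. Of the name series left out by the rule, 14 humanlincRNA probes of 1104, 8 mouselincRNA probes of 649 and 2 MM9LINCRNAEXON probes of 83 were above background in 3T3-L1 only. In C3H10T1/2 only, the numbers were 4, 2 and 1. Among the 58968 admitted probes that are not controls, 990 were above background in 3T3-L1 only and 363 in C3H10T1/2 only. With a difference of at least 3 as well, 0, 1 and 0 of the left-out probes remained in 3T3-L1, and 0, 0 and 1 in C3H10T1/2.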
